A study of Mus musculus with 12 samples.

Results

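The comparison set 2 dendritic cell (DC) populations of the mouse lung, CD11bhi CD14lo conventional DC (CD14lo cDC) and CD11bhi CD14hi monocyte-derived DC (CD14hi moDC), against 2 others, conventional DC that carry CD103 (CD103+ cDC) and CD11bhi monocyte-derived DC with high Ly6C (Ly6Chi moDC, termed inflammatory in the labels). Each side thus holds a conventional and a monocyte-derived population, so that the comparison crosses the lineages named in the labels. All 4 populations were sorted by flow cytometry, at a stated purity above 93%, from lungs of male C57BL/6J mice aged 8 to 12 weeks. All had received 100 ng of lipopolysaccharide, a bacterial cell wall component, and 100 ug of ovalbumin, a foreign protein, in 50 ul of buffer to the airway 16 h earlier, and no untreated mice are among the 12 samples analysed here. Each population had 3 biological replicates with 20 mice used for each, and 50 ng of RNA per replicate was amplified and hybridised to an Affymetrix mouse array. The members described here are the genes for which all 6 arrays of a side lay above, or all 6 below, the 6 arrays of the other side. Of 10929 genes tested, 146 met this rule (1.34%), with 109 higher (0.997%) and 37 lower (0.339%) in CD14lo cDC and CD14hi moDC. The values across the sides chose these genes, so they are given as descriptions. Counts called across the sides describe all genes, and tests of single members are given for contrasts other than the one across the sides. The rule used the values of all 12 arrays and can limit the spread within a side. Shares of members called in those contrasts are therefore descriptions beside the shares of all genes.

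Conventional DC arise from committed bone marrow precursors, while monocyte-derived DC arise from circulating monocytes that enter an inflamed tissue. Lung CD103+ cDC depend on the transcription factors IRF8 and BATF3 and are known for cross-presenting antigen to CD8 T cells, whereas CD11b+ cDC depend on IRF4 and are known for priming CD4 T cells. CD14 is a co-receptor for lipopolysaccharide carried by monocytes and macrophages, and Ly6C marks monocytes that have recently left the blood. Several molecules named below belong to the C-type lectins, surface receptors that bind glycans of microbes and of the host, and to the alternative activation programme that macrophages and DC run under interleukin-4 and interleukin-13.

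Signals are MAS5 intensities in arbitrary units, and array medians ran from 72.4 to 109. Of the markers used in the sort, Itgae and Itgam followed the labels. Ly6C was not checked, since its probe set in the platform annotation names both Ly6c1 and Ly6c2 and probe sets with several symbols were not assigned to a gene. Itgae, which encodes CD103, read 15467, 12449 and 17620 in CD103+ cDC and at most 1126 on any other array. Itgam, which encodes CD11b, read 72.1, 48.9 and 31.2 in CD103+ cDC and at least 859 elsewhere. Cd14 read 1714, 1257 and 1639 in CD14lo cDC and 11277, 9409 and 14322 in CD14hi moDC, but also 10965, 9073 and 12468 in Ly6Chi moDC, so the 2 sides are not parted by Cd14. The Gapdh 3' to 5' signal ratio, a measure of RNA integrity, averaged 1.85 ± 0.39 and 1.68 ± 0.14 in CD14lo and CD14hi cells and 2.74 ± 0.91 and 1.66 ± 0.22 in CD103+ and Ly6Chi cells (SD, n = 3). The sides overlap in it, but it was highest in CD103+ cDC, from 1.68 to 3.27, with no other array above 2.29. The same ratio of Actb averaged 1.04, 0.998, 1.03 and 1.03 in CD103+, CD14lo, CD14hi and Ly6Chi cells. What RNA integrity contributes to the differences was not tested.

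Fewer genes separated in this comparison than in either other pairing of the 4 populations. The arrays of conventional and monocyte-derived DC did not overlap for 1276 genes (11.7%), and those of CD103+ cDC with CD14hi moDC against CD14lo cDC with Ly6Chi moDC for 407 (3.72%), beside 146 here. A fit of population means with limma called 1617 genes across the sides at an adjusted p under 0.05 (14.8%), 1072 higher (9.81%) and 545 lower (4.99%) in CD14lo and CD14hi. This average does not require both populations of a side to differ from both of the other. Among the 1072 genes, both CD14lo and CD14hi means exceeded both others for 383. For 443 the Ly6Chi mean alone, for 215 the CD103+ mean alone and for 31 both fell within or past the CD14 populations. Among the 545 lower genes the counts in the same order were 218, 249, 70 and 8. A stricter count took genes called by limma in the same direction in each of the 4 pairs across the sides, and held 70 higher (0.64%) and 13 lower (0.119%), of which 68 and 12 were members. These pairs use the same values as the rule, so that overlap is no separate support for the members.

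The split between higher and lower depended on the scaling of the arrays. Of the calls across the sides, 66.3% were higher in CD14lo and CD14hi on the deposited scale, 59.0% after quantile normalization and 36.2% after centring each array at its median. Centring also moved the median difference of all genes from 0.02 to -0.13 (log2). All 109 higher and all 37 lower members kept their direction under each of these scalings, while 63 of the 109 and 28 of the 37 also stayed non-overlapping under all of them. Of the members with at least a 2-fold difference, 50 of 65 and 12 of 12 stayed so. Of the members named below, Blnk, Bcl2, Irf4, Car2, Qprt, Tmem176b, Aqp3, Il27ra, Ccnd1, Nfatc2, Ifi209, Mndal and Trim30a overlapped between the sides after centring, and Blnk, Car2, Qprt, Aqp3, Il27ra, Mndal and Trim30a also after quantile normalization. The plot of the gap under both scalings shows that the losses were among members with a narrow gap.

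**Figure D1:**
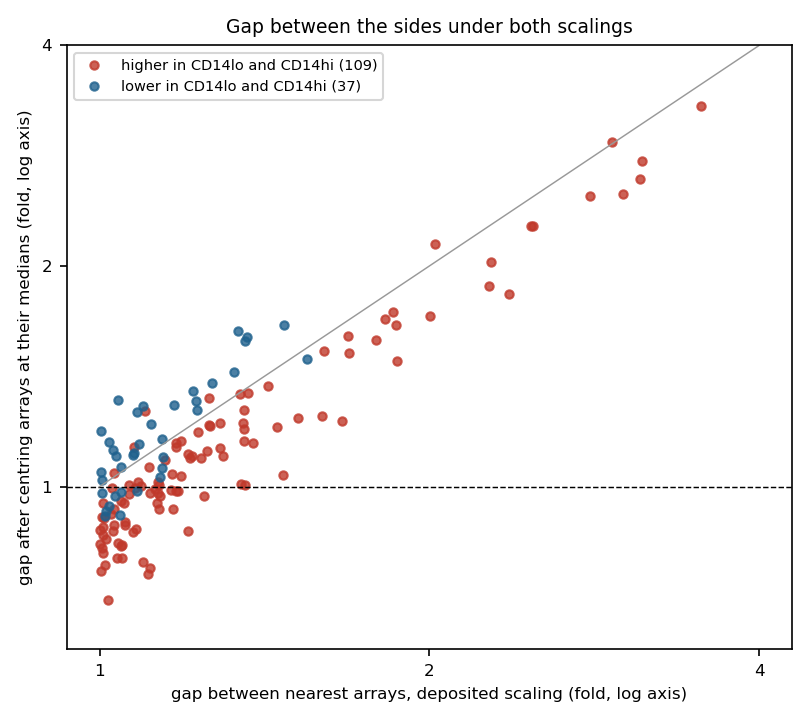
Gap between the nearest arrays of the sides for each of the 146 members, as a fold on a log axis, on the deposited scale (x axis) and after centring each array at its median (y axis). Points below the dashed line at 1 no longer separate after centring, and the members with the widest gaps, up to 3.54-fold on the deposited scale, all stay above it.

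The 109 higher members differed by 1.19 to 13.4-fold, with a median of 2.14-fold, and 19 by at least 4-fold. A fold here is taken on signals raised by a pseudocount of 50.0003, which understates the folds of dim genes. The gap between the nearest arrays of the sides reached 1.5-fold for 24 of them and 2-fold for 13. The 37 lower members differed by 1.14 to 4.20-fold, with a median of 1.69-fold, and the gap reached 1.5-fold for 1 of them. The highest mean of a higher member was in CD14hi moDC for 64 genes and in CD14lo cDC for 45, and the lowest in Ly6Chi moDC for 56 and in CD103+ cDC for 53. Lower members were most often lowest in CD14lo cDC, 24 against 13 in CD14hi moDC, and highest in CD103+ cDC, 26 against 11 in Ly6Chi moDC. Of the higher members 17 had no CD103+ or Ly6Chi array above its array's median signal, so they passed the filter on low signal only through the side where they are high. For 35 of the 109, at least 1 of the CD103+ and Ly6Chi populations had no array above its median. A fold fitted against such a dim population depends on the pseudocount and is no measured ratio, and a contrast between such populations that is not called says nothing of their levels. Among the genes named this holds for CD103+ cDC in Cd209c, Hr, Cd163, Blnk and St8sia6, for Ly6Chi moDC in Clu, Ctnnd2, Cd4 and Ehf, and for both in Cd209b, Clec4g, Dkk2, Lpar1, Efnb2, Ptger3, Qprt and Aqp3. Of the lower members, 2 had a CD14 population with no array above its median. Adgb had none in CD14lo cDC, and Notch4 none in either, so Notch4 passed the filter only through the side where it is high.

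C-type lectin genes were among the largest differences. Cd209a, Cd209b and Cd209c encode mouse relatives of human DC-SIGN, a lectin that binds mannose and fucose glycans, and Clec4g, which encodes a lectin known from liver sinusoids, lies in the same gene cluster with no coding gene between it and Cd209a. Mgl2 encodes CD301b, a galactose-type lectin of CD11b+ DC. Promoters of 3 of these genes are shown because the genes lead the higher side, together with that of Rab32 from the lower side for comparison. Each holds 250 bases before and 50 after the start of transcription in RefSeq (GRCm38.p6), at chr8:3946814-3947113, minus strand for Cd209c, chr8:3748935-3749234, minus strand for Cd209a, chr11:70130107-70130406, plus strand for Mgl2 and chr10:10558158-10558457, minus strand for Rab32. Capitals mark matches on either strand to TTNNGNAA (the form of a C/EBP site) in the lectin genes, to an ETS-IRF composite in Cd209a, where it reads as TTTCTCTTCC, and to GAGGAAG (PU.1) in Rab32.
Cd209c: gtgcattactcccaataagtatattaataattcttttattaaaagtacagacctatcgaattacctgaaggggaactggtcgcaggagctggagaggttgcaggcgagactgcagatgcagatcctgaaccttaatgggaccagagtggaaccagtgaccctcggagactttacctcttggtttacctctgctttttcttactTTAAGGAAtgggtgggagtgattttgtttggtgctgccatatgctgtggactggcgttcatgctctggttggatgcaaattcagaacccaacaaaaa
Cd209a: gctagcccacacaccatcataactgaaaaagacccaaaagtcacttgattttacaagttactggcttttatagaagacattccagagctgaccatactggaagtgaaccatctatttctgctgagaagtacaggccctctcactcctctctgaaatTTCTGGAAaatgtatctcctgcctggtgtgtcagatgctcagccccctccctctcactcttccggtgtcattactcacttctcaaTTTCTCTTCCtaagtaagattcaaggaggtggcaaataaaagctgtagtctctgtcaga
Mgl2: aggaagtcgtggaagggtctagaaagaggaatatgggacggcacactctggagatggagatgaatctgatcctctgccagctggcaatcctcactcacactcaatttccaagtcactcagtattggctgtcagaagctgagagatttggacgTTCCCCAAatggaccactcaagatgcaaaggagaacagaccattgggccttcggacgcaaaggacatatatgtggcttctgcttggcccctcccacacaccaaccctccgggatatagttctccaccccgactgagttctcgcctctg
Rab32: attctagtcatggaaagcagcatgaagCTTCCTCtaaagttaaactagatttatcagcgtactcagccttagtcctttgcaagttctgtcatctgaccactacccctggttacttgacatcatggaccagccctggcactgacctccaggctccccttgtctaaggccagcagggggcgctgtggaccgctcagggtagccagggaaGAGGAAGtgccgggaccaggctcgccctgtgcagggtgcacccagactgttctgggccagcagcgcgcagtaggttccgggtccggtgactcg
A match describes these letters and not a bound factor.

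Cd209c signals were 15.4, 19.3 and 11.2 on the CD103+ arrays, 1829, 2250.5 and 1703 on CD14lo, 449.9, 851 and 821 on CD14hi and 39.9, 116 and 71.5 on Ly6Chi arrays. Every CD14lo and CD14hi array was well above every other, CD103+ arrays were lowest, and the sides differed by 13.4-fold, the largest difference of any member. Cd209a signals were 469, 271 and 52.5 on the CD103+ arrays, 7162, 6704 and 6756 on CD14lo, 1604, 2055 and 2657 on CD14hi and 650.0, 609 and 351 on Ly6Chi arrays, a difference of 9.99-fold. CD14lo arrays held the highest Cd209a levels and no arrays overlapped between the sides. Cd209a was 3.28-fold lower in CD14hi moDC than in CD14lo cDC (log2 difference -1.71 ± 0.39, adjusted p = 0.004), and Cd209c 2.68-fold lower (log2 difference -1.42 ± 0.25, adjusted p = 0.00045). Cd209a was also lower in CD103+ cDC than in Ly6Chi moDC (log2 difference -1.15 ± 0.39, adjusted p = 0.02). For Cd209c only 1 of these 6 arrays exceeded its median, so no order is read between CD103+ and Ly6Chi cells. The Cd209a call between CD103+ and Ly6Chi did not pass when CD103+ cDC replicate 3 was left out (adjusted p = 0.14), nor without Ly6Chi moDC replicate 1 (0.077) or 2 (0.067).

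The cluster neighbours were likewise highest in CD14lo cDC and next in CD14hi moDC. Cd209b means were 10.8, 240.0, 122 and 19.3 in CD103+, CD14lo, CD14hi and Ly6Chi cells, and Clec4g means 13.9, 231, 91.8 and 11.5. Members of the Cd209 family are similar in sequence, and how far their probe sets share signal was not tested. Mgl2 differed less within the sides. Its signals were 467, 651 and 359 on the CD103+ arrays, 4987, 2262 and 2007 on CD14lo, 4596, 5194 and 4899.7 on CD14hi and 571, 481 and 218 on Ly6Chi arrays, 7.78-fold higher in CD14lo and CD14hi, with a gap of 2.94-fold between the nearest arrays. Neither within-side contrast was called for Mgl2 (log2 difference 0.78 ± 0.31, adjusted p = 0.11 for CD14hi minus CD14lo; log2 difference 0.25 ± 0.31, adjusted p = 0.54 for CD103+ minus Ly6Chi). Clec4b1, which encodes an activating lectin of DC, had means of 108, 1452, 1593 and 817 in the same order of populations and was 5.85-fold lower in CD103+ cDC than in Ly6Chi moDC (log2 difference -2.55 ± 0.23, adjusted p = 3.2e-08).

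Some genes known from alternative activation or from macrophages were also among the higher members. Of 17 tested alternative activation genes 3 separated the sides, and 4 were called lower, as given with the lists below. Retnla, which encodes the secreted protein RELM-alpha induced by interleukin-4, read 240.4, 251 and 118 on the CD103+ arrays, 2506, 1478 and 578 on CD14lo, 10126, 11387 and 10592 on CD14hi and 489, 369.9 and 272 on Ly6Chi arrays. CD14hi arrays were highest and close together, while the spread over CD14lo arrays was wide, so that the nearest arrays were only 1.16-fold apart. Within the higher side Retnla was 7.96-fold higher in CD14hi moDC (log2 difference 2.99 ± 0.35, adjusted p = 6.2e-06). Cd163, which encodes the scavenger receptor for haemoglobin bound to haptoglobin, read 78.6, 54.8 and 31.6 on the CD103+ arrays, 315, 508 and 579.9 on CD14lo, 458, 747 and 703 on CD14hi and 34, 63.6 and 80.1 on Ly6Chi arrays. It was 5.53-fold higher in CD14lo and CD14hi with a gap of 2.8-fold, and no difference between CD14hi and CD14lo was called (log2 difference 0.42 ± 0.26, adjusted p = 0.34). Ear3, of the eosinophil-associated ribonuclease family, read 1936, 3854 and 5188 (lowest, median and highest) on the CD14lo and CD14hi arrays and 313, 444 and 822 on the CD103+ and Ly6Chi arrays. Its probe set is of a type that is shared with similar genes, so the Ear family member it reports is uncertain.

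Fabp4, which encodes a fatty acid binding protein of adipocytes and macrophages, had the widest gap of any member, 3.54-fold. Its signals were 364, 318 and 398 on the CD103+ arrays, 2696, 1959.8 and 1538 on CD14lo, 2744, 1608 and 2477 on CD14hi and 325, 163 and 197 on Ly6Chi arrays. CD14lo and CD14hi arrays overlapped each other, and the sides differed by 6.51-fold. Fabp4 is also high in alveolar macrophages. Of 12 tested markers of those cells, 2 were called higher across the sides, Fabp4 and Pparg, and 1 lower, Chil3, beside 9.81% and 4.99% of all genes. Pparg did not separate the sides, with means of 15.0, 361, 600 and 399 in CD103+, CD14lo, CD14hi and Ly6Chi cells. The summed signal of 13 markers ran from 8304 to 18668 in CD14lo cDC, 12115 to 16278 in CD14hi moDC, 7103 to 9496 in CD103+ cDC and 15761 to 18777 in Ly6Chi moDC. Much of this sum came from Chil3, Abcg1 and Cd9, with means of 6685, 5616 and 3095 in Ly6Chi moDC. Siglecf, a defining marker of alveolar macrophages, had means of 371, 436, 364 and 274 in CD103+, CD14lo, CD14hi and Ly6Chi cells, and Marco means of 337, 312, 667 and 98.0. What these cells contribute to the Fabp4 levels was not tested. In sorted populations such as these, fewer cells carrying a transcript and less transcript per cell cannot be told apart.

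Receptors and secreted factors were the next group. Gfra2, which encodes the receptor of the neurotrophic factor neurturin, read 511, 446 and 303 on the CD103+ arrays, 3247, 1806 and 1704 on CD14lo, 4236, 3272 and 2934 on CD14hi and 103, 101 and 137 on Ly6Chi arrays. It was 10.1-fold higher in CD14lo and CD14hi, and within the other side 2.83-fold higher in CD103+ cDC than in Ly6Chi moDC (log2 difference 1.5 ± 0.23, adjusted p = 2.9e-05). With the kept probe sets of Gfra2 averaged, the log2 difference across the sides was 1.99 with a gap of 1.97-fold, against 3.34 and 3.13-fold here. Ddr1, which encodes a receptor tyrosine kinase for collagen, read 84.2, 61 and 11.4 on the CD103+ arrays, 3493, 3979 and 3625 on CD14lo, 948, 790.3 and 1073 on CD14hi and 529, 347 and 325 on Ly6Chi arrays. CD14lo arrays stood far above CD14hi arrays (log2 difference -1.93 ± 0.24, adjusted p = 1.4e-05 for CD14hi minus CD14lo), which in turn stood above the rest. Clu, which encodes the secreted chaperone clusterin, read 667, 1304 and 2034 (lowest, median and highest) on the CD14lo and CD14hi arrays and 7.67, 139 and 335 on the CD103+ and Ly6Chi arrays. It was called higher in CD103+ cDC than in Ly6Chi moDC (log2 difference 2.07 ± 0.30, adjusted p = 1.4e-05). No Ly6Chi array of Clu exceeded its median, so the size of this difference depends on the pseudocount.

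Lpar1, which encodes a receptor for lysophosphatidic acid, read 212, 242 and 292 (lowest, median and highest) on the CD14lo and CD14hi arrays and 6.94, 40.8 and 55.4 on the CD103+ and Ly6Chi arrays, 3.48-fold apart. Efnb2, which encodes the ligand ephrin-B2, read 159.9, 191 and 284 against 25.8, 34.2 and 54.8 on the same arrays. Their gaps were 2.49-fold and 2-fold, and no CD103+ or Ly6Chi array of either gene exceeded its median. No difference between CD14hi and CD14lo was called for Lpar1 (log2 difference -0.02 ± 0.23, adjusted p = 0.97) or Efnb2 (log2 difference 0.17 ± 0.21, adjusted p = 0.68). Dkk2, which encodes a secreted regulator of Wnt signalling, had means of 8.73, 172, 127 and 2.73 in CD103+, CD14lo, CD14hi and Ly6Chi cells. Hrh1, the histamine H1 receptor gene, had means of 85.7, 264, 255 and 77.4 in that order. Ptger3, which encodes a receptor for prostaglandin E2, had means of 19.8, 157, 61.3 and 1.5, and Il27ra, which encodes a receptor chain for interleukin-27, had means of 102, 264, 219.9 and 166. Each of these 4 genes was higher in both CD14 populations, with differences of 3.51-fold, 2.36-fold, 2.54-fold and 1.62-fold.

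Of the T and B cell marker lists, Cd4 was the one gene among the members. Cd4, the T cell co-receptor gene that some DC also express, read 7.11, 8.87 and 113 on the CD103+ arrays, 185, 142 and 141 on CD14lo, 749, 673 and 565 on CD14hi and 4.03, 6.66 and 9.52 on Ly6Chi arrays. CD14hi arrays were highest, a single CD103+ array (replicate 3) reached 113, and Ly6Chi arrays were near 0. Cd4 was 3.45-fold higher in CD14hi moDC than in CD14lo cDC (log2 difference 1.79 ± 0.31, adjusted p = 0.0004). The T cell receptor genes Cd3d, Cd3e and Cd3g had means no higher than 76.6 in any population and did not pass the filter on low signal. Among 5 tested T cell markers Cd4 and Cd2 were called higher, and the summed signal of 12 markers ran from 3406 to 4413 in CD14lo cDC, 4712 to 5413 in CD14hi moDC, 4754 to 5193 in CD103+ cDC and 1766 to 2663 in Ly6Chi moDC. Its part in the Cd4 levels was not tested.

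Blnk, which encodes an adaptor of B cell receptor signalling, read 41.3, 49.6 and 45.2 on the CD103+ arrays, 622, 508 and 416 on CD14lo, 2489, 2289 and 1827 on CD14hi and 416, 359 and 373 on Ly6Chi arrays. It marks the edge of the rule, since its lowest CD14lo array, 416.1, stood just above its highest Ly6Chi array, 415.9. Just outside the rule lay Klra17, whose lowest value on the higher side was 88.0 and highest on the other 88.5. Pou2f2, which encodes the transcription factor OCT-2 of B cells, had means of 122, 594, 909 and 294 in CD103+, CD14lo, CD14hi and Ly6Chi cells, and Bcl2, which encodes an inhibitor of apoptosis, means of 303, 2470.5, 2241 and 1399. Spn, the gene of the sialomucin CD43, had means of 925, 3822, 2190.4 and 1134, Stap1, which encodes a signalling adaptor, 734, 3132, 3034 and 1541, and Nfatc2, which encodes a calcium-regulated transcription factor, 1212, 1856, 1794 and 1053. In each of these 5 genes CD14lo and CD14hi levels were within 2-fold of each other. Of 5 tested B cell markers, Cd22 and Cd79b were called higher, beside 9.81% of all genes, though Cd79b had its highest mean, 302, in Ly6Chi moDC. The summed signal of 10 markers overlapped between the sides, with 1662 to 3803 on CD14lo and CD14hi arrays and 1290 to 2600 on the others. Much of it came from Ighm, with means of 925, 1377, 901 and 1304 in CD103+, CD14lo, CD14hi and Ly6Chi cells.

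Transcriptional regulators included Irf4, Hr and Ehf. Irf4, which encodes the factor on which CD11b+ cDC depend, read 802, 1283 and 721 on the CD103+ arrays, 2939.7, 2169 and 2464 on CD14lo, 1336, 1318 and 1956 on CD14hi and 506, 519 and 282 on Ly6Chi arrays. CD14lo arrays were highest, but the lowest CD14hi array and the highest CD103+ array were only 1.03-fold apart. Centring the arrays ended the separation of Irf4, and its call between CD14hi and CD14lo (log2 difference -0.71 ± 0.23, adjusted p = 0.046) was lost with quantile normalization (adjusted p = 0.0502) among other settings. Hr, which encodes the nuclear co-repressor hairless, read 336, 672 and 835 (lowest, median and highest) on the CD14lo and CD14hi arrays and 32.2, 69.3 and 106 on the CD103+ and Ly6Chi arrays, 5.61-fold apart, with a gap of 2.48-fold. Ehf, which encodes an ETS factor of epithelia, read 393, 184 and 522 in CD103+ cDC but 33, 10.3 and 49 in Ly6Chi moDC, against 835, 622 and 752 in CD14lo cDC and 943, 977 and 1177 in CD14hi moDC. The lower side of Ehf was therefore widely split (log2 difference 2.30 ± 0.27, adjusted p = 1e-06 for CD103+ minus Ly6Chi).

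Enzymes and structural genes completed the leading set. St8sia6 and St8sia1 encode sialyltransferases, which cap glycans with sialic acid. St8sia6 read 52.8, 28.5 and 42.2 on the CD103+ arrays, 507, 503 and 366 on CD14lo, 426, 585 and 658 on CD14hi and 43.6, 83.4 and 82.7 on Ly6Chi arrays, and St8sia1 read 478, 1096 and 2341 against 108, 172 and 263 as lowest, median and highest of the CD14lo and CD14hi against the other arrays. St8sia6 was 5.3-fold apart between the sides, with a gap of 3.12-fold, and no difference between CD14hi and CD14lo was called (log2 difference 0.25 ± 0.22, adjusted p = 0.54). Ctnnd2, which encodes delta-catenin, a junction protein known mainly from neurons, read 261, 322 and 204 on the CD103+ arrays, 2205, 1905 and 2482 on CD14lo, 427, 420.2 and 714 on CD14hi and 70.5, 47.3 and 47.7 on Ly6Chi arrays. It was 4.03-fold lower in CD14hi moDC than in CD14lo cDC (log2 difference -2.01 ± 0.21, adjusted p = 2.2e-06). It was also called higher in CD103+ cDC than in Ly6Chi moDC (log2 difference 1.56 ± 0.21, adjusted p = 7.5e-06), where no Ly6Chi array exceeded its median and the size depends on the pseudocount. Car2, a carbonic anhydrase gene, had means of 296, 835, 426 and 117 in CD103+, CD14lo, CD14hi and Ly6Chi cells, and Aqp3, which encodes a channel for water and glycerol, 68.8, 197, 124 and 64.4. Tmem176a and Tmem176b, adjacent genes of membrane proteins abundant in DC, had means of 5472, 7209.6, 7720.5 and 2965 and of 6098, 8802, 10571 and 4765. Ccnd1, the cyclin D1 gene, had means of 5470, 7746, 6318 and 3357 and a gap of 1.05-fold. The plot of leading higher genes by array shows these values together.

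**Figure D2:**
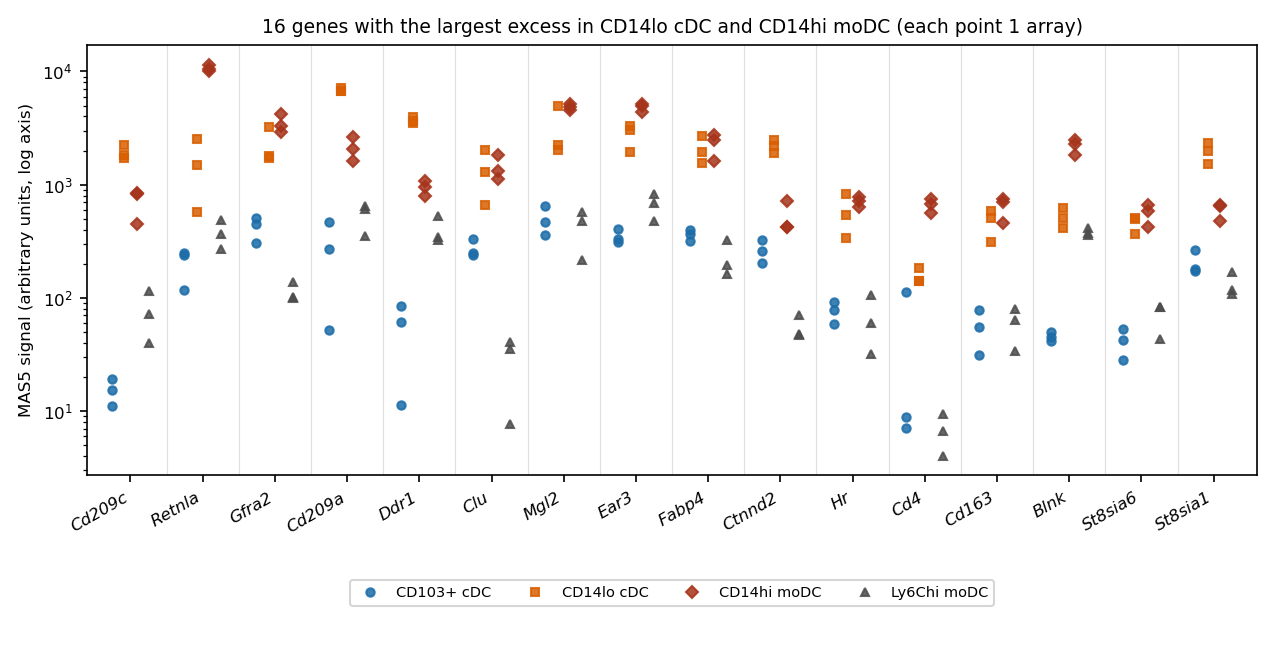
MAS5 signal on each of the 12 arrays (log axis, 1 point per array) of the 16 genes with the largest excess in CD14lo cDC and CD14hi moDC. For each gene all squares and diamonds (CD14lo, CD14hi) lie above all circles and triangles (CD103+, Ly6Chi), widely for Fabp4, Gfra2 and St8sia6 and narrowly for Retnla, Cd4 and Blnk.

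The lower side was shorter and shallower. Its leading gene was Igf2r, which encodes the mannose 6-phosphate receptor that carries enzymes to lysosomes and takes up insulin-like growth factor 2. Igf2r read 1292, 1229.7 and 1417 on the CD103+ arrays, 113, 60.7 and 76.9 on CD14lo, 479.7, 507 and 425 on CD14hi and 1137, 742 and 695 on Ly6Chi arrays. CD14lo arrays were lowest, and Igf2r was 3.95-fold higher in CD14hi moDC than in CD14lo cDC (log2 difference 1.98 ± 0.20, adjusted p = 1.1e-06). Met, which encodes the receptor for hepatocyte growth factor, read 806, 1062 and 1405 on the CD103+ arrays, 498, 531 and 359 on CD14lo, 279, 213 and 343 on CD14hi and 1199.7, 859 and 1248 on Ly6Chi arrays. CD103+ and Ly6Chi arrays covered overlapping ranges, Met was 2.78-fold lower in CD14lo and CD14hi, and no within-side contrast was called (log2 difference -0.65 ± 0.22, adjusted p = 0.055; log2 difference -0.03 ± 0.22, adjusted p = 0.93).

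Other receptors differed mainly through high levels in CD103+ cDC. Notch4, which encodes a Notch receptor, read 1079, 896 and 826 on the CD103+ arrays, 59.7, 77.2 and 77.4 on CD14lo, 48.7, 54.6 and 35.8 on CD14hi and 112, 90.2 and 79.9 on Ly6Chi arrays. Its Ly6Chi arrays lay just above the CD14lo arrays, with a gap of 1.02-fold, and CD103+ cDC held 6.82-fold more than Ly6Chi moDC (log2 difference 2.77 ± 0.20, adjusted p = 1.3e-09). Itga1, which encodes a collagen-binding integrin chain, had means of 780.4, 104, 87.8 and 223 in CD103+, CD14lo, CD14hi and Ly6Chi cells, and P2ry14, which encodes a receptor for UDP-glucose, had means of 983, 159, 200.4 and 309. Pde8b, a gene of a cyclic AMP phosphodiesterase, had means of 473, 63.5, 113 and 217. Levels of Itga1 (log2 difference 1.62 ± 0.24, adjusted p = 2e-05), P2ry14 (log2 difference 1.55 ± 0.24, adjusted p = 3.8e-05) and Pde8b (log2 difference 0.95 ± 0.27, adjusted p = 0.0066) were higher in CD103+ cDC than in Ly6Chi moDC.

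Adgb and Rab32 are neighbours on chromosome 10 with no coding gene between them. Adgb, which encodes androglobin, read 355, 266 and 434 on the CD103+ arrays, 34.8, 43.1 and 32.5 on CD14lo, 154, 80 and 148 on CD14hi and 662, 277 and 320.5 on Ly6Chi arrays, and its gap of 1.55-fold was the widest of the lower members. Rab32, which encodes a small GTPase of lysosome-related organelles and whose promoter is printed above, read 1082, 1277 and 1295 (lowest, median and highest) on the CD14lo and CD14hi arrays and 1777, 2160.4 and 2599 on the CD103+ and Ly6Chi arrays. No difference between CD14hi and CD14lo was called (log2 difference 0.11 ± 0.13, adjusted p = 0.66). Gadd45a, which encodes a protein induced by DNA damage, and Gng12, which encodes a G protein gamma subunit, are neighbours as well. Gadd45a read 79.1, 125 and 218 against 219, 316 and 576 as lowest, median and highest of the CD14lo and CD14hi against the other arrays, and Gng12 761, 939 and 1376 against 1842, 2122 and 2253. Gadd45a arrays nearly touched, at 1-fold, while those of Gng12 were 1.33-fold apart.

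Mxi1, which encodes a repressor that competes with MYC for MAX, read 579.6, 745 and 841 (lowest, median and highest) on the CD14lo and CD14hi arrays and 1166, 1989.7 and 2139 on the CD103+ and Ly6Chi arrays, 2.42-fold lower in CD14lo and CD14hi. Sycp3, which encodes a protein of the meiotic synaptonemal complex, read 45.4, 112 and 117 against 153, 263 and 319.6 on the same arrays. Tmem38b, which encodes an intracellular cation channel, read 213, 309 and 396 against 498, 608 and 1046, and Ermard 426, 546 and 679.7 against 782, 848 and 1409. Tmem38b was 1.67-fold lower in CD103+ cDC than in Ly6Chi moDC (log2 difference -0.74 ± 0.20, adjusted p = 0.0059), unlike Notch4, Itga1, P2ry14 and Pde8b above. Anpep, which encodes the surface peptidase CD13, had means of 5473, 2456, 3346 and 5062 in CD103+, CD14lo, CD14hi and Ly6Chi cells. Nampt, which encodes an enzyme of NAD salvage, had means of 2877, 1897, 1715 and 2908, Slc25a3, the mitochondrial phosphate carrier gene, 8272, 6062, 5990.1 and 7144, and Gna15, a G protein alpha subunit gene, 317, 113, 166 and 244. The least separated lower member was Chil1, with 147.8 as the lowest value on the higher side and 147.3 as the highest on the lower, and just outside lay Rxra, with 622.7 and 624.1.

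Oasl1 was the one lower member on the list of interferon-stimulated genes. Oasl1, an interferon-stimulated gene that restrains interferon production, read 2425, 1796 and 2432 on the CD103+ arrays, 864, 586 and 956 on CD14lo, 1500.3, 1151 and 1519 on CD14hi and 1853, 1742 and 1852 on Ly6Chi arrays. It was lowest in CD14lo cDC (log2 difference 0.77 ± 0.18, adjusted p = 0.0053 for CD14hi minus CD14lo, a call lost after centring, adjusted p = 0.059). Ifi209 and Mndal, genes of the interferon-inducible p200 family, and Trim30a, an interferon-inducible regulator of inflammatory signalling, are lower members outside that list, were named after their values were seen and were lowest in CD14hi moDC. All 3 overlapped between the sides after centring, and Mndal and Trim30a also after quantile normalization. Their means were 5503, 4221, 2612 and 5119, 7459, 5961, 3689.8 and 6674 and 3845, 3428, 2436 and 4323 in CD103+, CD14lo, CD14hi and Ly6Chi cells, and each was called lower in CD14hi moDC than in CD14lo cDC (log2 difference -0.68 ± 0.12, adjusted p = 0.00047; log2 difference -0.69 ± 0.11, adjusted p = 0.00028; log2 difference -0.49 ± 0.12, adjusted p = 0.0099). The Trim30a call was lost without CD14hi moDC replicate 2 (adjusted p = 0.071). Genes of the p200 family are similar, and the Mndal probe set is of a type shared between genes. Of 32 tested interferon-stimulated genes, 2 were called higher and 4 lower, beside 9.81% and 4.99% of all genes. Their median difference was -0.02 against 0.02 over all genes.

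**Figure D3:**
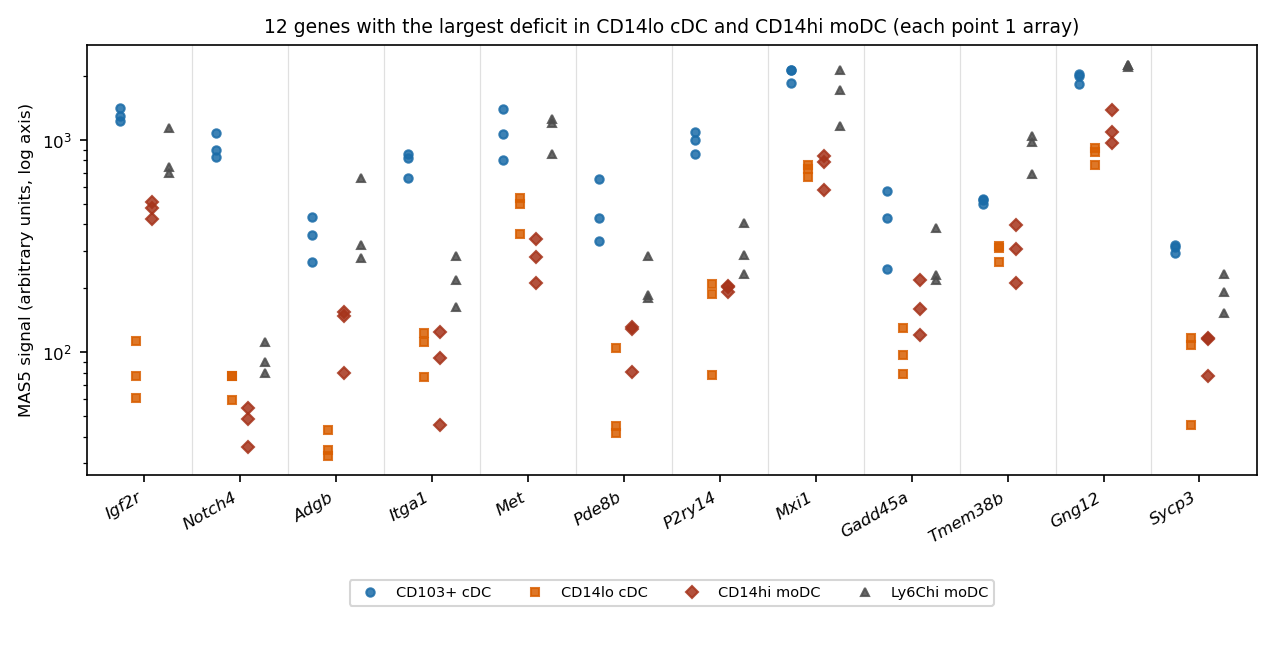
MAS5 signal on each of the 12 arrays (log axis, 1 point per array) of the 12 genes with the largest deficit in CD14lo cDC and CD14hi moDC. For each gene all squares and diamonds (CD14lo, CD14hi) lie below all circles and triangles (CD103+, Ly6Chi), and Igf2r, Notch4 and P2ry14 are highest in CD103+ cDC.

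Whether the populations of a side also differed from each other was tested with limma over all genes. Of the 109 higher members, 22 were called between CD14hi moDC and CD14lo cDC (20.2%, against 16.2% of all genes), 6 of them higher in CD14hi moDC and 16 in CD14lo cDC (9.24% and 6.95% of all genes). Between CD103+ cDC and Ly6Chi moDC, 42 were called (38.5%, against 47.5%), 20 higher in CD103+ cDC and 22 in Ly6Chi moDC (23.2% and 24.3% of all genes). In neither contrast were 54 of the 109 called (49.5%, against 47.6% of all genes), among them Mgl2 and Nfatc2. Of these 54, 17 had fewer than 3 CD103+ and Ly6Chi arrays above the median and 12 had none, so that their contrast on that side lies among dim signals. Of the 37 lower members, 6 were called between CD14hi and CD14lo (16.2%), 8 between CD103+ and Ly6Chi (21.6%) and 24 in neither (64.9%), among them Met, Mxi1, Gng12, Sycp3, Rab32 and Ermard. A contrast that misses the threshold does not show equal levels. The rule asks for a gap between the sides and can itself limit the spread within a side. A share of members below or above that of all genes is therefore no separate result. All these counts rest on 3 arrays per population.

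The difference across the sides was also measured separately in conventional DC (CD14lo against CD103+) and in monocyte-derived DC (CD14hi against Ly6Chi), and the 2 effects were compared by an interaction contrast in limma. The effects differed for 37 of the 109 higher members (33.9%) and 10 of the 37 lower (27.0%), against 32.9% of all genes. Of these 37 higher members, 21 had the larger excess in conventional DC and 16 in monocyte-derived DC (15.9% and 17% of all genes). For Ddr1 the excess was larger in conventional DC (log2 difference 4.12 ± 0.34, adjusted p = 3.7e-08). Its fitted folds were 38.6-fold and 2.22-fold, the former against CD103+ arrays of which 1 exceeded its median, and the difference of effects was 4.92 with a pseudocount of 2% and 3.61 with one of 20% of the trimmed mean, against the 10% used here. Cd209a (26.9-fold against 3.71-fold), Cd209c (30.1-fold against 6-fold) and Clec4b1 (10.1-fold against 1.9-fold) leaned the same way, with fitted folds given in the same order. Retnla (5.51-fold against 25.7-fold), Gfra2 (4.78-fold against 21.4-fold), Clu (3.93-fold against 18.9-fold) and Ehf (2-fold against 13.6-fold) leaned towards monocyte-derived DC. For Mgl2 no difference between the effects was called (log2 difference -1.03 ± 0.44, adjusted p = 0.081). The plot of both effects shows members of both kinds.

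**Figure D4:**
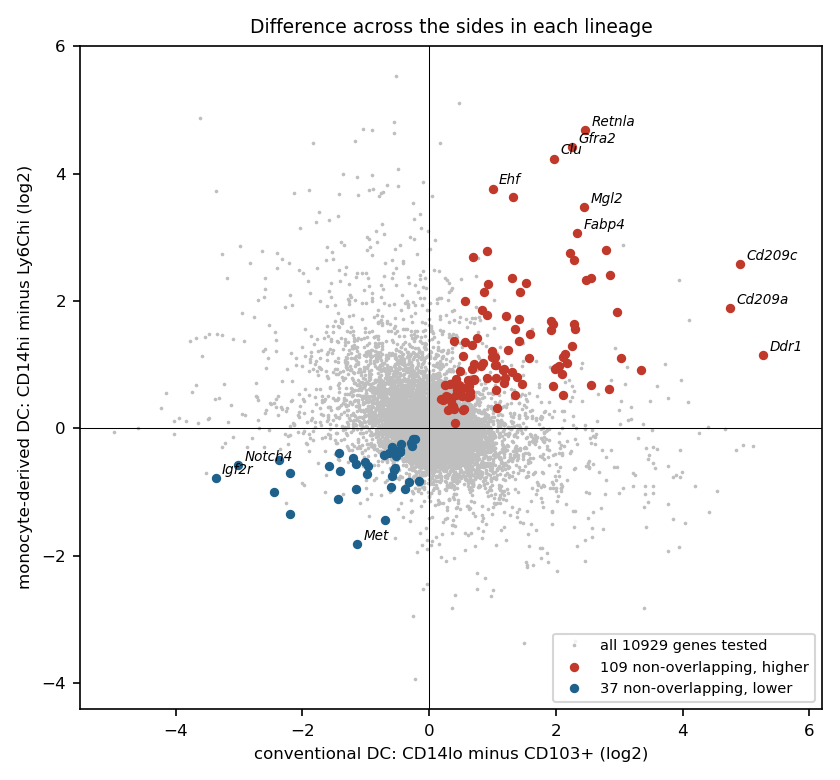
Log2 difference between CD14lo and CD103+ cDC (x axis) and between CD14hi and Ly6Chi moDC (y axis) for all 10929 genes tested (grey), the 109 higher members (red) and the 37 lower members (blue). Members lie in the upper right and lower left by their definition, with Ddr1, Cd209a and Cd209c far to the right and Retnla, Gfra2 and Clu near the top.

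Gene lists compiled for this tissue gave the wider setting. They were chosen with results of these data known and are described by counts beside all genes, of which 9.81% were called higher, 4.99% lower, at a median difference of 0.02. Of 17 tested CD11b+ DC genes, 14 were called higher and Notch4 lower, with a median log2 difference of 1.49. Cd209a, Mgl2, Irf4, Tmem176a and Tmem176b did not overlap between the sides, while in others such as Sirpa, Zeb2 and Csf1r Ly6Chi moDC were as high as the CD14 populations. Sirpa, which encodes an inhibitory receptor of myeloid cells, had means of 245.2, 7260, 9856 and 9922 in CD103+, CD14lo, CD14hi and Ly6Chi cells. Of 26 tested C-type lectin genes, 16 were called higher and Clec1a lower (median 1.03), and 5 did not overlap, namely Cd209a, Cd209b, Cd209c, Mgl2 and Clec4b1. Of 17 alternative activation genes, 11 were called higher and 4 lower (median 1.17), and Retnla, Mgl2 and Cd163 did not overlap. The 4 lower ones were Chil3, Arg1, Ccl24 and Cish, so the list was not uniform, and Arg1, the arginase gene, had means of 48.9, 36.8, 169 and 3108 in the same order of populations.

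Other lists had called members but few or none that separated the sides. Of 13 complement genes 7 were called higher (median 0.89), of 10 Fc receptor genes 7 higher and 1 lower (median 0.73), and of 15 CC chemokine ligands 10 higher and 1 lower (median 0.71). Of 19 monocyte-derived macrophage genes 12 were called higher and 1 lower (median 0.86). No member of these lists separated the sides. C1qc, a complement component gene, had means of 123, 1305, 17126 and 10475 in CD103+, CD14lo, CD14hi and Ly6Chi cells, and Ccl22, a chemokine gene, 23241, 12613, 17302 and 669.7. Of 32 cholesterol and lipid genes 15 were called higher and 1 lower (median 0.44), with Fabp4 separated. Of 16 CD103+ DC genes 11 were called lower and 1 higher (median -0.90) with none separated, and Irf8, the factor CD103+ cDC depend on, had means of 12195, 2367, 2143 and 2716. The signs of these medians held under quantile normalization and centring. The chart of lists by share called sets them side by side.

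**Figure D5:**
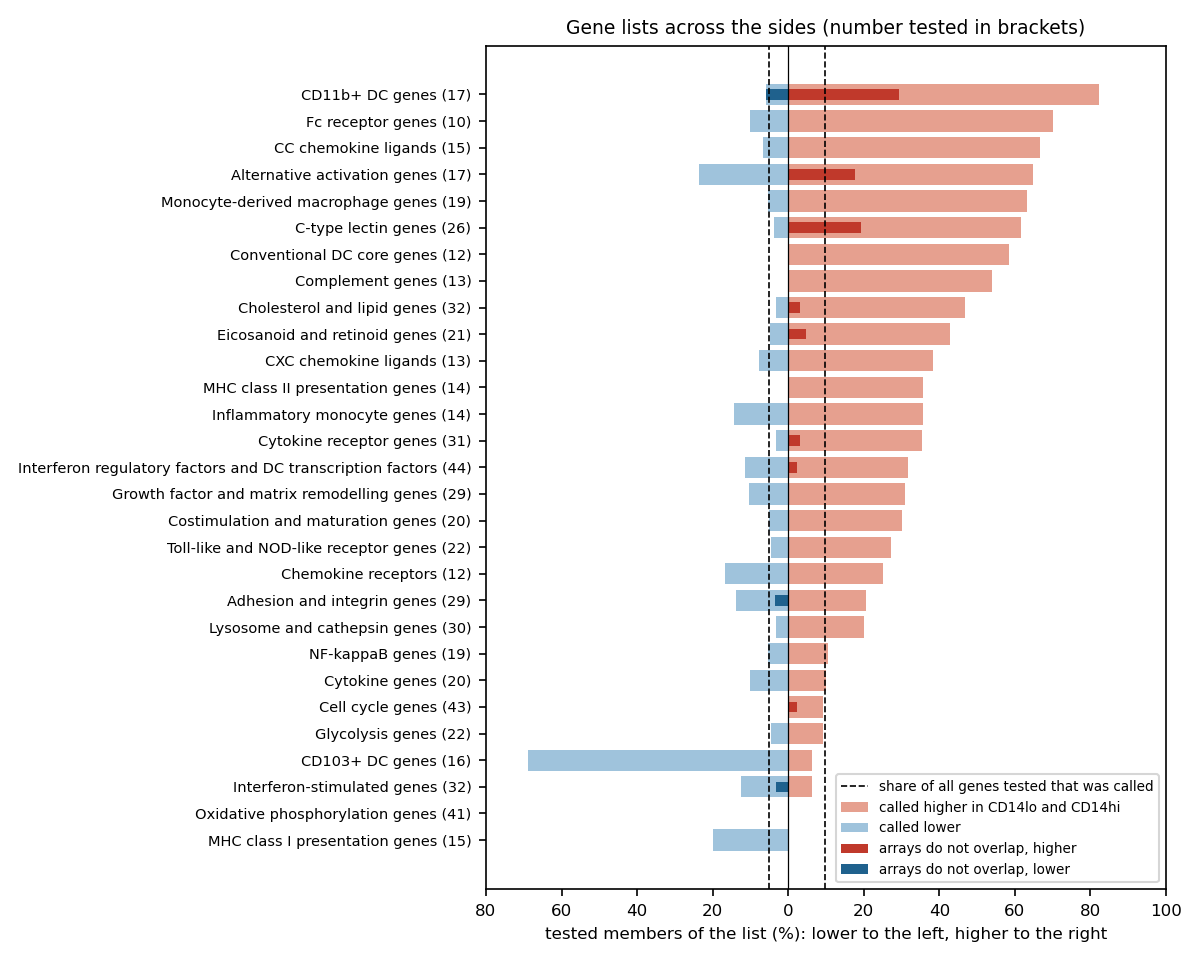
Share of each gene list's tested members called higher (right, light red) or lower (left, light blue) in CD14lo and CD14hi, with non-overlapping members in dark colours and dashed lines at the share of all genes called, 9.81% higher and 4.99% lower. CD11b+ DC, C-type lectin and alternative activation genes hold most of the dark red, and CD103+ DC genes reach furthest to the left with none separated.

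Some members are neighbours on a chromosome. Besides the Cd209 cluster, Adgb with Rab32, Gadd45a with Gng12 and Tmem176a with Tmem176b, adjacent pairs with no coding gene between them were Spn with Qprt and Arhgef18 with Pex11g, both higher. Promoters were matched for 82 higher and 32 lower members and searched on both strands for 9 motifs. TGANTCA, the form of an AP-1 site, occurred in a promoter of 6.10% of higher members and of 6.19% of all genes tested with a promoter, but in 21.9% of lower members, 7 of 32, namely Ifi209, Kbtbd7, Met, Mndal, Notch4, P2ry14 and Trim30a. GAGGAAG occurred in 17.1% of higher and 28.1% of lower members against 16.4% of all, and TTNNGNAA, a loose pattern, in 32.9% and 31.25% against 35.6%. The ETS-IRF composite occurred in 3.66% and 6.25% against 2.98%. In the same order the IRF motif occurred in 4.88% and 9.38% against 3.85%, and NF-kappaB in 4.88% and 9.38% against 7.29%. STAT gave 7.32% and 3.13% against 8.15%, the E-box 8.54% and 12.5% against 12.0%, and the GC box 63.4% and 59.4% against 68.5%. A gene with several promoters counts once, so genes with more promoters match more easily. The 32 lower members had 47 promoters and all 8933 tested genes with a promoter 11422. These shares describe few genes.

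Other probe sets of the same genes gave a check on identity. Of the 109 higher members, 60 had 113 further kept probe sets, 110 of which differed in the same direction, 51 of them without overlap. Of the 37 lower members, 20 had 28 further probe sets, 27 of them in the same direction and 9 without overlap. With the kept probe sets of each gene averaged, 95 of the 109 higher and 29 of the 37 lower members stayed non-overlapping. Among those named, Spn, Ccnd1, Pex11g, Nampt, Slc25a3, Ifi209, Mndal and Kbtbd7 then overlapped between the sides. Pex11g was then also not called across them (adjusted p = 0.19 in limma). Counting every kept probe set by itself, 231 were higher and 76 lower without overlap, of which 33 and 11 carried no single gene symbol and are not named here. The count of lower members moved more than that of higher ones when an array was left out. It was 37 with all arrays and 85 without CD14lo cDC replicate 2, 62 without CD103+ cDC replicate 2 or CD14hi moDC replicate 1, and 58 and 56 without Ly6Chi moDC replicates 2 and 1, as an array left out can only ease the rule.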

How the data were processed

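Intensities of 12 arrays were taken from the deposited table, which the submitters' processing notes say was made with MAS5, version not stated. The authors had scaled each array to a 2% trimmed mean of 500.003. Of 45101 probe sets, 64 controls were left out, 34945 carried 1 symbol in the platform annotation, 932 several and 9160 none. A probe set was kept if above its array's median on at least 3 of 12 arrays (25138), and the kept probe set of highest mean stood for its gene (10929 genes). A pseudocount of 50.0003 (10% of the trimmed mean) was added before log2. The limma package 3.58.1 in R 4.3.3 (lmFit, eBayes with trend) fitted population means over all 12 arrays with 8 residual degrees of freedom, using two-sided tests and Benjamini-Hochberg adjustment over all genes at 0.05. All adjusted p-values of single genes come from limma, and values after ± of a log2 difference are its standard errors over 3 arrays per population. Figures were drawn with matplotlib 3.10.9. The labels do not say whether same-numbered samples share mice.

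The members and lists were chosen with earlier results of these data known. Genes named are, per direction, the 12 with the largest difference and the 6 with the widest gap among those called in neither within-side contrast, up to 4 members of each list, the 3 largest of each within-side contrast and direction, the sort markers and the genes at the edge of the rule. St8sia1, Cd209b, Clec4g, Bcl2, Dkk2, Pou2f2, Hrh1, Car2, Spn, Stap1, Nfatc2, Tmem176a, Tmem176b, Aqp3, Anpep, Nampt, Ifi209, Mndal, Trim30a, Slc25a3, Gna15 and the genes given as examples of lists or markers were added after their values were seen. On simulated data with 200 of 10929 genes changed across the sides, limma made 213 calls, 13 of them false, and found 100% of the 2-fold and of the 4-fold changes. These rates belong to the simulated data, and whether they hold on the measured arrays was not tested. Quantile normalization, centring, other pseudocounts and filters, probe set rules, no trend, a 2-fold requirement, a replicate block and leaving out each array were tried as alternatives.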

Additional observations from a re-analysis of the deposited data

Results flagged for a closer look

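Among the members named, the genes below had a difference across the sides whose size was not the same in conventional DC (CD14lo against CD103+) and in monocyte-derived DC (CD14hi against Ly6Chi), by the interaction contrast in limma. Each value is the log2 difference in conventional DC minus that in monocyte-derived DC, from 3 arrays per population, so a positive value of a higher member and a negative value of a lower member mean a larger difference in conventional DC.

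Higher members with the larger excess in conventional DC were Ddr1 (4.12, adjusted p = 3.7e-08), Cd209a (2.86), Clec4b1 (2.42), Cd209c (2.33), Bcl2 (2.22), St8sia1 (1.14), Spn (1.07), Stap1 (1.06), Clec4g (0.98) and Cd209b (0.96, adjusted p = 0.04). Higher members with the larger excess in monocyte-derived DC were Ehf (-2.76, adjusted p = 1.7e-05), Cd4 (-2.32), Clu (-2.26), Retnla (-2.22), Gfra2 (-2.16), Tmem176a (-0.98) and Tmem176b (-0.61, adjusted p = 0.02). Lower members with the larger deficit in conventional DC were Igf2r (-2.60, adjusted p = 9.7e-07), Notch4 (-2.43), P2ry14 (-1.87), Pde8b (-1.5), Itga1 (-1.44) and Oasl1 (-1.04, adjusted p = 0.004). Lower members with the larger deficit in monocyte-derived DC were Trim30a (0.66, adjusted p = 0.0076), Ifi209 (0.58) and Mndal (0.53, adjusted p = 0.017).

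Some of these calls rested on single arrays, the pseudocount or the scaling. Cd209b and Clec4g had no CD103+ or Ly6Chi array above its median, so their values depend on the pseudocount, and with a smaller one, 2% of the trimmed mean, both calls were lost (adjusted p = 0.0749 and 0.151). The Cd209b call was also lost with no filter (0.0565). It was lost without any of 8 arrays in turn, with an adjusted p of 0.0688 to 0.104, and the Clec4g call without any of 7, with 0.0611 to 0.11. The CD103+ arrays of Cd209c and the Ly6Chi arrays of Clu, Cd4 and Ehf were likewise not above their medians, and the size of these values depends on the pseudocount, while each call passed with the smaller one and with one of 20%. The same holds for the CD14lo and CD14hi arrays of Notch4, whose call also passed with both. The Tmem176b call was lost without CD103+ cDC replicate 1 (0.0539), CD14hi moDC replicate 2 (0.0587) or Ly6Chi moDC replicate 1 (0.0607), after centring (0.456) and without the intensity trend (0.0514). The Mndal call was lost without CD14hi moDC replicate 2 (0.0556), and the Oasl1 call after centring (0.0781).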

How the results depend on the processing

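The main counts were 1072 genes called higher and 545 lower across the sides, 109 and 37 without overlap, and 70 and 13 called in all 4 pairs. Quantile normalization gave 56 lower genes without overlap. Centring each array at its median gave 616 and 1085 calls, 65 and 122 genes without overlap and 45 and 31 called in all pairs. The stricter filter on signal left fewer genes to test, with 64 higher without overlap and 46 higher in all pairs. Every probe set taken by itself gave 2088 and 954 calls, 231 and 76 without overlap and 138 and 26 in all pairs. A 2-fold requirement gave 280 and 94 calls, 65 and 12 without overlap and 31 and 3 in all pairs, and a gap of at least 1.5-fold left 24 and 1. Leaving out each array gave 900 to 1158 and 432 to 627 calls, 117 to 146 and 46 to 85 genes without overlap, and 60 to 69 and 9 to 15 in all pairs. With arrays left out, 21 to 31 members were called between CD14hi and CD14lo, 41 to 52 between CD103+ and Ly6Chi and 37 to 45 for a difference of the effects. Other alternatives, smaller and larger pseudocounts, no filter, averaged probe sets and no trend, left these counts within 1.5-fold. A similar count need not hold the same genes, and averaging probe sets ended the separation of some members. Where an alternative ended a CD103+ minus Ly6Chi call of a named member, the difference kept its sign. The cause of these shifts was not tested, except where an alternative tests fewer or more features by construction.

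Same-numbered arrays deviated together with correlations of -0.11 to 0.24, over 0.1 in 8 of 18 pairs, and 10 of 12 samples correlated best with their own number. What same-numbered arrays share is not in the labels and was not tested. The main fit takes no account of the number, and the replicate block was an alternative. With the replicate block 1107 and 581 genes were called, 72 and 16 in all pairs, and 32, 50 and 53 members for the contrasts above, within 1.5-fold of the counts without it. With 3 arrays per population the precision is limited by their number, and signals near the array medians carry little information.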
